A study of Drosophila melanogaster with 6 samples.

Results

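The mitochondrial genome of Drosophila melanogaster was examined through the 37 genes of the deposited expression table whose symbol begins with mt:, out of 17558 genes in all. They comprise 13 protein-coding genes, 2 rRNA genes and 22 tRNA genes. RNA sequencing libraries had been made from polyadenylated RNA of adult males that had received Micrococcus luteus, a Gram-positive bacterium, by injection 12 h earlier, and the labels name no dissected tissue. The 3 overexpression libraries came from flies of the genotype Gal80ts; Tub> CR46018, in which the tubulin driver, active in most tissues, expresses the long non-coding RNA CR46018. The 3 control libraries came from flies of the genotype Gal80ts; Tub-Gal4/P{CaryP}attP40, which carry the driver over an empty landing site. The temperature-sensitive Gal80 repressor and the infection were shared by all 6 libraries, and no uninfected flies stand beside them. Whether libraries within a group derive from independent cohorts is not stated in the labels. The p-values therefore reflect only the spread among the libraries at hand, which may be technical. By its title, the study concerned Toll signalling and its transcription factors Dif and Dorsal.

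The mitochondrial genome encodes core subunits of the respiratory chain and the ATP synthase, together with the rRNAs and tRNAs of the organelle's own ribosomes. Complex I passes electrons from NADH to ubiquinone, complex III passes them on to cytochrome c, complex IV hands them to oxygen, and complex V uses the proton gradient to make ATP. The genome is transcribed from both strands as long precursors, from which tRNAs are cut out to release the mRNAs and rRNAs, and most mRNAs then receive a poly(A) tail. All other subunits of these complexes are encoded in the nucleus, as are the proteins that copy, transcribe and translate the genome.

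The deposited values were FPKM, that is, reads normalised to gene length and to library size, so levels of different genes can be set side by side. Multiplied by gene length they fell on whole reads, and recovered reads ran from 16836385 to 18165774 per overexpression library and from 15966072 to 18021306 per control library. FPKM summed over all genes was 646862 to 668227 in overexpression libraries and 694593 to 708815 in control libraries. Outside the mitochondrial genome the sums were 584108 to 600269 in overexpression libraries and 606134 to 618218 in control libraries. By both sums every overexpression library lay below every control library, so the deposited scale itself differed between groups. CR46018 itself had 3, 1 and 0 recovered reads in overexpression replicates 1 to 3 and 0 reads in each control library (exact two-sided permutation test, p = 0.4, where 0.1 is the smallest p that 3 against 3 libraries allow). The counts therefore did not show the transgene at a level that checks the labels.

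Mitochondrial transcripts were among the most abundant in the flies. The large rRNA gene mt:lrRNA was the highest of all genes in the table by mean FPKM, and 6 members were among the highest 20 and 9 among the highest 100. Reads assigned to the 37 genes made up 8.79%, 8.34% and 9.50% of recovered reads in overexpression replicates 1 to 3, against 11.3%, 11.2% and 11.04% in control replicates 1 to 3. Every overexpression library lay below every control library. Summed over the 13 mRNAs, the level was 39126 ± 1422 FPKM in overexpressing flies and 50357 ± 2630 FPKM in controls (SD, n = 3 each), a ratio of 0.777.

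**Figure D1:**
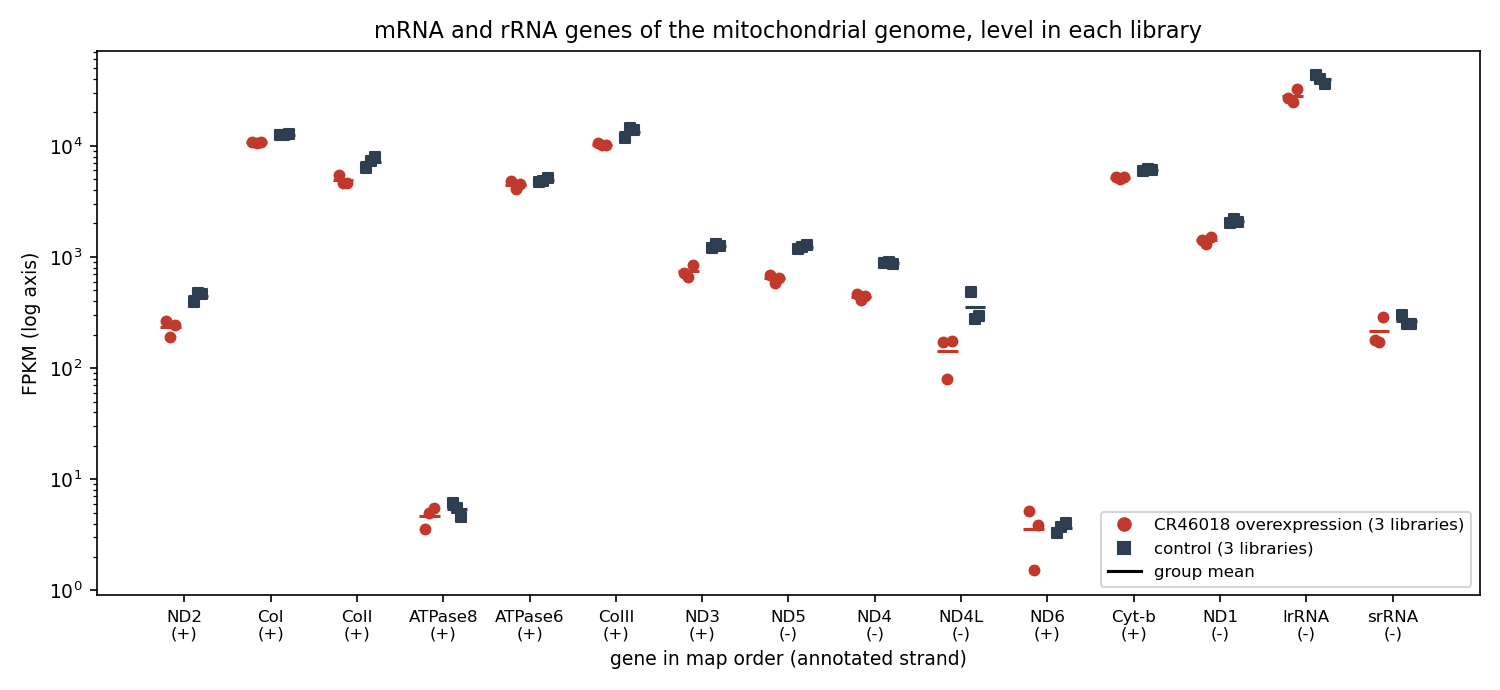
FPKM on a log axis of the 13 mRNA genes and 2 rRNA genes in map order, with the annotated strand in brackets; each point is 1 library and each short line a group mean. The complex I genes ND2, ND3, ND5, ND4, ND4L and ND1 show groups that do not overlap, while ATPase6, ATPase8, ND6 and srRNA overlap.

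Most mRNAs for complex I subunits were lower in overexpressing flies: 6 of 7 fell, with a median log2 difference of -0.93 over the 7. Of the 26 members with a mean of at least 1 FPKM over the 6 libraries, 9 fell and 1 rose by limma on log2(FPKM + 1), at a Benjamini-Hochberg adjusted p under 0.05 over the 12251 genes tested. Over all tested genes, 6.31% fell and 2.45% rose. Of the 13 mRNAs 8 fell, 6 of them for complex I and 2 for complex IV, and 0 rose. The count of members that fell was 5 without overexpression replicate 2, control replicate 2 or control replicate 3, and at most 7 without any other library. The groups did not overlap, with overexpression lower, for 10 of the 13 mRNAs, against 16.2% of all tested genes. The median log2 difference, overexpression minus control, was -0.55 over the 13 mRNAs and -0.0024 over all tested genes. Members cut from the same precursor are not independent of each other.

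The 3 minus-strand genes mt:ND5, mt:ND4 and mt:ND4L lie next to each other, separated only by a tRNA gene, and all fell. The gene mt:ND4 (FBgn0262952), which encodes a proton-pumping membrane subunit of complex I, lies on mitochondrion_genome from 8207 to 9545 in dm6. It measured 461, 408 and 448 FPKM in overexpression replicates 1 to 3, against 884, 891 and 864 FPKM in control replicates 1 to 3. The groups were far apart relative to their spread: the means were 439 ± 28.02 FPKM in overexpressing flies and 879.6 ± 14.4 FPKM in controls (SD, n = 3 each), and the log2 difference was -1.003 ± 0.06 (SE, limma adjusted p = 0.000289).

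Its neighbour mt:ND5 (FBgn0013684), at 6409 to 8125 on the same strand, encodes another of the proton-pumping subunits. It measured 694, 585 and 648 FPKM in the overexpression libraries, against 1179, 1225 and 1269 FPKM in the control libraries. No libraries overlapped, and the log2 difference was -0.93 ± 0.07 (SE, limma adjusted p = 0.000696). The short gene mt:ND4L (FBgn0013683), at 9545 to 9835, completes the block, with 172, 79.4 and 175 FPKM in overexpression and 488, 277 and 293 FPKM in control libraries. Here overexpression replicate 2 and control replicate 1 each stood apart from the others of their group. The log2 difference, -1.34 ± 0.32 (SE), passed in the main fit of all 6 libraries (limma adjusted p = 0.0415). It passed in no fit with a library omitted (limma adjusted p from 0.0502 without overexpression replicate 2 to 0.103 without control replicate 1). With no filter and with quantile normalization it did not pass either, so the call was lost under 8 of the 16 alternatives.

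On the same strand but in a separate stretch next to the rRNAs, mt:ND1 (FBgn0013679), which encodes a subunit at the ubiquinone-binding side of complex I, also fell. At 11721 to 12659, it measured 1431, 1319 and 1522 FPKM in overexpression replicates 1 to 3, against 2003, 2214 and 2068 FPKM in control replicates 1 to 3. All overexpression libraries were lower than all control libraries, with a log2 difference of -0.56 ± 0.07 (SE, limma adjusted p = 0.00388).

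Complex I genes on the plus strand fell as well. The gene mt:ND2 (FBgn0013680), at 240 to 1263, encodes a proton-pumping membrane subunit and measured 266, 188 and 242 FPKM in overexpression libraries, against 390.2, 469.6 and 467 FPKM in control libraries. Overexpression replicate 2 was the lowest of its group, as it was for 10 of the 13 mRNAs. The log2 difference was -0.94 ± 0.13 (SE, limma adjusted p = 0.00474). The gene mt:ND3 (FBgn0013681), at 5608 to 5961, encodes a small membrane subunit and measured 723, 657 and 843 FPKM in overexpression libraries, against 1201, 1319 and 1251 FPKM in control libraries, again without overlap. Its log2 difference was -0.77 ± 0.09 (SE, limma adjusted p = 0.00269). The calls of mt:ND1, mt:ND2, mt:ND3, mt:ND4 and mt:ND5 held under all 16 alternative settings tried, which include leaving out each library and several scalings.

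The seventh complex I gene, mt:ND6 (FBgn0013685), at 9971 to 10495 on the plus strand, was nearly absent from the libraries. It had 56, 16 and 39 reads in overexpression replicates 1 to 3 and 33, 37 and 37 reads in control replicates 1 to 3, or 5.18, 1.52 and 3.89 FPKM against 3.27, 3.68 and 4.02 FPKM. The groups overlapped (log2 difference -0.13 ± 0.29 SE, limma adjusted p = 0.841), and the difference turned positive without overexpression replicate 2 (0.24, adjusted p = 0.362). Its level was 0.0682 ± 0.0349% of that of its plus-strand neighbour mt:Cyt-b in overexpressing flies and 0.0600 ± 0.00578% in controls (SD, n = 3 each).

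**Figure D2:**
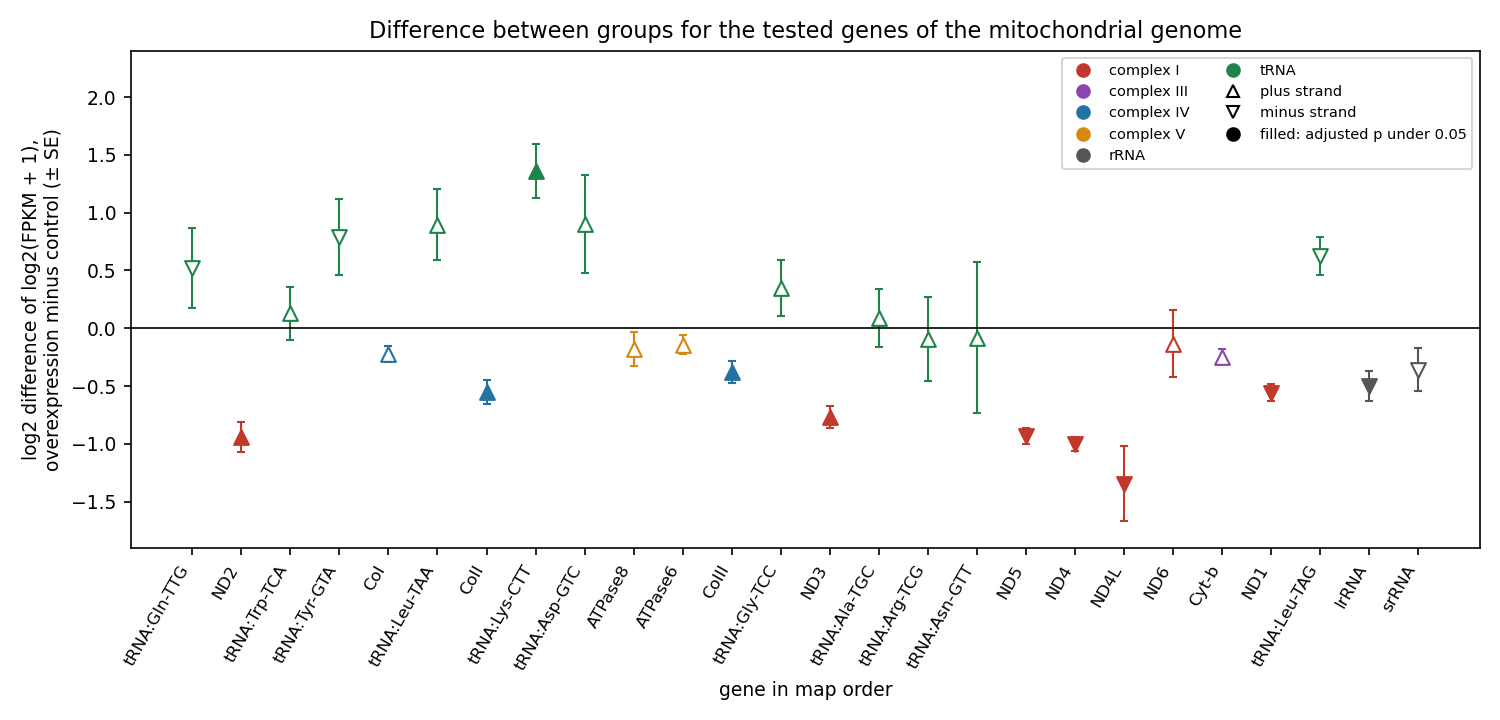
Log2 difference, overexpression minus control, on log2(FPKM + 1), with SE bars, for the 26 tested genes in map order; upward triangles are plus-strand and downward triangles minus-strand genes, and filled symbols passed an adjusted p under 0.05. The 13 mRNAs and 2 rRNAs all lie below 0, with ND4L lowest at -1.34, and 9 of the 11 tRNA genes lie above 0.

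Of the 3 complex IV genes, which encode the core of cytochrome c oxidase, 2 fell and the median log2 difference was -0.38. The gene mt:CoI (FBgn0013674), at 1474 to 3009, encodes the catalytic subunit and measured 10824, 10615 and 10858 FPKM in overexpression libraries, against 12374, 12487 and 12756 FPKM in control libraries. The groups did not overlap, but the log2 difference of -0.22 ± 0.07 (SE) did not pass (limma adjusted p = 0.0978). It passed with voom on the scale of the deposited FPKM (adjusted p = 0.0222) and turned to 0.044 with quantile normalization.

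The gene mt:CoII (FBgn0013675), at 3083 to 3767, encodes the subunit that takes up electrons from cytochrome c and measured 5429, 4632 and 4623 FPKM in overexpression libraries, against 6364, 7351 and 7878 FPKM in control libraries. It fell by 0.55 ± 0.10 on the log2 scale (SE, limma adjusted p = 0.0161). Without overexpression replicate 2 or 3 or control replicate 2 or 3 the adjusted p was between 0.0503 and 0.0716. The call was also lost with no filter and with quantile normalization. In all it was lost under 6 of the 16 alternatives, with an adjusted p of up to 0.109. The gene mt:CoIII (FBgn0013676), at 4736 to 5524, encodes the remaining core subunit and measured 10499.9, 10145 and 10071 FPKM in overexpression libraries, against 11714, 14381 and 13996 FPKM in control libraries. Its fall of 0.38 ± 0.10 (SE) lay at the threshold (limma adjusted p = 0.0485) and was lost under 10 of the 16 alternatives, among them both rescalings and every omission of a library except control replicate 1 (adjusted p up to 0.166 on leaving out a library). The highest of all alternatives was 0.229, with quantile normalization.

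Neither the complex III gene nor the 2 complex V genes passed. The gene mt:Cyt-b (FBgn0013678) encodes cytochrome b, the membrane core of complex III, and lies at 10499 to 11635. It measured 5232, 5019 and 5184 FPKM in overexpression libraries, against 5989, 6207 and 6091 FPKM in control libraries. The spread within groups was small and they did not overlap, yet the log2 difference of -0.24 ± 0.06 (SE) stood just outside the threshold (limma adjusted p = 0.0515). It passed under 4 of the 16 alternatives, among them a pseudocount of 5 (adjusted p = 0.0396), and turned to 0.071 with quantile normalization, in a range of adjusted p from 0.0102 to 0.424 over the alternatives.

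The gene mt:ATPase6 (FBgn0013672), at 4062 to 4736, encodes the membrane subunit through which protons pass in ATP synthase. It measured 4802, 4044 and 4512 FPKM in overexpression libraries, against 4738, 4792 and 5171 FPKM in control libraries. These ranges overlapped, and the log2 difference was -0.14 ± 0.08 (SE, limma adjusted p = 0.364). Its neighbour mt:ATPase8 (FBgn0013673), at 3907 to 4068, had only 12, 16 and 17 reads in overexpression libraries and 19, 17 and 13 reads in control libraries. At 4.68 ± 0.974 FPKM in overexpressing flies and 5.39 ± 0.762 FPKM in controls (SD, n = 3 each), its groups overlapped (log2 difference -0.18 ± 0.14 SE, limma adjusted p = 0.516).

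The low counts of mt:ATPase8 are set beside its position. The gene is 162 bp long and shares 7 bp with mt:ATPase6, with which it is carried on the same message in flies, and per the labels' protocols the library fragments were 370 to 420 bp long. The 291 bp gene mt:ND4L, which shares 1 bp with mt:ND4, nonetheless had between 463 and 2734 reads. The sources used here do not state how the authors' counting treated reads that touch several genes. Among the nuclear genes of mitochondrial function described further on, 6 were listed at 0 in every library, and for 5 of these (PolG2, mtTFB1, SLIRP1, Hsp22 and ND-MNLL) all exonic bases lie in exons of another gene on the same strand. The part of the counting rule in the low values of mt:ATPase8, mt:ND6 and the tRNA genes was not tested.

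Ratios between members within a library do not depend on how libraries are scaled. The level of mt:ND4 was 4.26%, 3.84% and 4.12% of that of mt:CoI in overexpression replicates 1 to 3, against 7.14%, 7.14% and 6.77% in control replicates 1 to 3. For mt:ND5 the ratio to mt:CoI was 5.97 ± 0.453% in overexpressing flies and 9.76 ± 0.212% in controls (SD, n = 3 each), and for mt:ND2 2.15 ± 0.349% in overexpressing flies and 3.53 ± 0.326% in controls. These 3 ratios did not overlap between groups, and each reached the smallest p that the exact two-sided permutation test allows with 3 against 3 libraries (0.1, or 0.25 adjusted over the 10 ratios computed). The ratio of mt:ATPase6 to mt:CoI, at 41.3 ± 3.14% in overexpressing flies and 39.1 ± 1.27% in controls, overlapped (exact p = 0.4, adjusted p = 0.75). No ratio to mt:CoI was computed for mt:CoII, mt:CoIII or mt:Cyt-b. Their log2 differences in level were -0.55, -0.38 and -0.24, each lower than the -0.22 of mt:CoI, though that of mt:Cyt-b only slightly. A larger fall than that of mt:CoI was thus not confined to complex I genes. Whether complex I genes shifted more against mt:CoI than these was not tested. The ratio of mt:ND3 to mt:CoIII, the mRNA gene upstream of it on the same strand, was 7.25 ± 0.997% in overexpressing flies and 9.45 ± 0.700% in controls, without overlap (exact p = 0.1, adjusted p = 0.25). Between the adjoining minus-strand genes mt:ND4L and mt:ND4 the ratio was 32.0 ± 10.9% in overexpressing flies and 40.1 ± 13.2% in controls, with overlap (exact p = 0.6, adjusted p = 0.75). The ratios of mt:ATPase8 to mt:ATPase6 (exact p = 0.8) and of mt:ND6 to mt:Cyt-b (exact p = 1.0) overlapped as well, as did that of mt:srRNA to mt:lrRNA, at 0.749 ± 0.119% in overexpressing flies and 0.675 ± 0.0387% in controls (exact p = 0.5, adjusted p = 0.75).

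The complex I genes together accounted for 9.26%, 8.59% and 9.92% of the summed mRNA FPKM in overexpression replicates 1 to 3, against 12.99%, 12.4% and 11.9% in control replicates 1 to 3. Complex IV genes accounted for 66.2 ± 1.05% in overexpressing flies and 65.7 ± 1.18% in controls. Complex III, which is mt:Cyt-b alone, stood at 13.2 ± 0.220% in overexpressing flies and 12.1 ± 0.490% in controls. Complex V, almost wholly mt:ATPase6, stood at 11.4 ± 0.574% in overexpressing flies and 9.75 ± 0.397% in controls (SD, n = 3 each). The overexpression libraries thus had a smaller part of complex I and larger parts of complexes III and V among their mitochondrial mRNAs. None of these parts overlapped between groups, while the part of complex IV did. Parts of 1 sum depend on each other, and a larger part here was not a higher level. The log2 differences in level were -0.24 for mt:Cyt-b, -0.14 for mt:ATPase6 and -0.18 for mt:ATPase8.

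By coding strand, all 4 minus-strand mRNAs, which are mt:ND1, mt:ND4, mt:ND4L and mt:ND5, fell, and all encode complex I subunits. Of the 9 plus-strand mRNAs 4 fell, mt:ND2, mt:ND3, mt:CoII and mt:CoIII. Median log2 differences were -0.97 for the minus strand and -0.24 for the plus strand, but mt:ND2 and mt:ND3 on the plus strand, at -0.94 and -0.77, lay within the minus-strand range of -1.34 to -0.56. The strand is that of the annotation. The sources used here do not state whether the authors counted by strand, and without that reads from opposite strands of the same stretch cannot be told apart. Minus-strand genes made up 6.76 ± 0.400% of summed mRNA FPKM in overexpressing flies and 9.06 ± 0.512% in controls (SD, n = 3 each).

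Among the abundant mRNAs, genes at a higher level had log2 differences closer to 0. Across the 11 mRNAs with a control mean of at least 100 FPKM, which leaves out mt:ND6 and mt:ATPase8, Spearman's rho between the control mean and the log2 difference was 0.85 and Pearson's r on the log2 level was 0.89. Across all 13 mRNAs rho was 0.16 and r was -0.06. These are descriptions across genes that share libraries and precursors, and the control level enters both measures. Complex I genes were the less abundant of the 11, between 353 and 2095 FPKM in controls, so complex and abundance cannot be told apart in this set.

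Of the rRNAs, mt:lrRNA (FBgn0013686), the large ribosomal RNA at 12735 to 14058, measured 27096, 24752 and 32509 FPKM in overexpression libraries, against 42870.2, 39819 and 35986 FPKM in control libraries. The groups did not overlap, and the log2 difference was -0.50 ± 0.13 (SE, limma adjusted p = 0.0497). This call was lost under 12 of the 16 alternatives, among them every omission of 1 library, whose adjusted p ranged from 0.0546 to 0.140. The gene alone took 4.07%, 3.79% and 4.88% of recovered reads in overexpression replicates 1 to 3, against 6.06%, 5.61% and 5.23% in control replicates 1 to 3. The small ribosomal RNA mt:srRNA (FBgn0013688), at 14131 to 14916, was far lower, with 180.0, 173 and 288 FPKM in overexpression libraries, against 303, 252 and 248 FPKM in control libraries. Overexpression replicate 3 lay among the controls (log2 difference -0.36 ± 0.18 SE, limma adjusted p = 0.294), and without it the gene passed (-0.59, adjusted p = 0.0189; range of adjusted p over the alternatives 0.0189 to 0.574). Both rRNA levels come from libraries selected for poly(A), so they do not measure the total rRNA of the organelle. The level of mt:ND1, next to the rRNAs on the same strand, was 5.10 ± 0.361% of that of mt:lrRNA in overexpressing flies and 5.33 ± 0.574% in controls (SD, n = 3 each; exact p = 0.6).

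**Figure D3:**
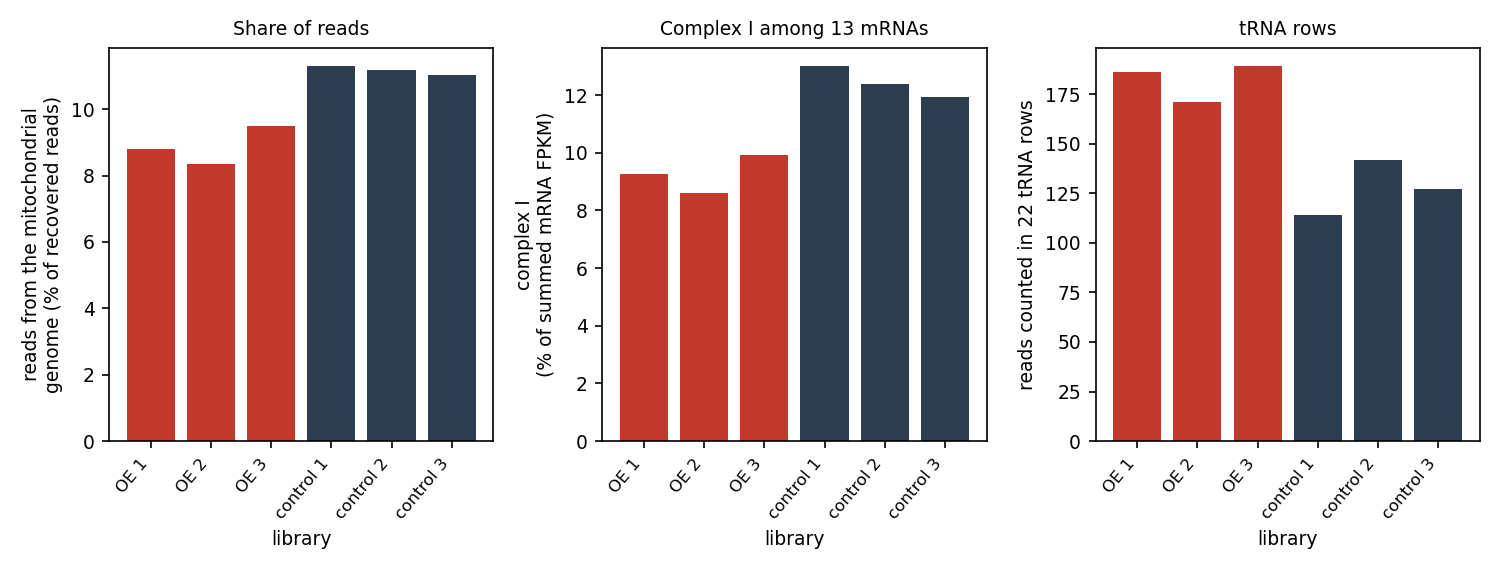
Bars from 0 for each library: reads of the 37 mitochondrial genes as a percentage of recovered reads, complex I as a percentage of the summed FPKM of the 13 mRNAs, and reads counted in the 22 tRNA genes (OE, overexpression). Overexpression libraries are lower than all control libraries in the first 2 panels and higher in the last, at 171 to 189 against 114 to 142 reads.

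Few reads were counted in tRNA genes, and they were more numerous in overexpressing flies. The 22 tRNA genes held 186, 171 and 189 reads in overexpression replicates 1 to 3, against 114, 142 and 127 reads in control replicates 1 to 3, which is at most 0.0118% of the reads of the mitochondrial genome in any library. Every overexpression library lay above every control library. The genes are 62 to 72 bp long, against library fragments of 370 to 420 bp, and which molecules these reads come from was not tested. Of the 22 genes 6 were listed at 0 in every library, another 5, for methionine, cysteine, histidine, proline and valine, stayed below a mean of 1 FPKM with at most 6 reads in all, and 11 were tested.

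Of the 11 tested tRNA genes 1 rose and 0 fell (limma), against 2.45% and 6.31% of all tested genes. At an unadjusted p under 0.05, 4 were higher and 0 lower. The share of all genes at that unadjusted threshold was not computed, here or for the lists below. Voom called 0 on the scale of the deposited FPKM and 1 on library totals, and the share of all genes it called was not computed either. The one that rose, mt:tRNA:Lys-CTT, a lysine tRNA gene between mt:CoII and mt:ATPase8, had 3 reads in each overexpression library, against 0, 0 and 1 reads in control replicates 1 to 3. Its log2 difference on log2(FPKM + 1) was 1.36 ± 0.23 (SE, limma adjusted p = 0.0109), but it rests on 10 reads: the ratio of overexpression to control per scaled read was 8.43 with a 95% exact counting interval of 1.17 to 369. Voom on the recovered reads with the scale of the deposited FPKM did not call it (adjusted p = 0.0656). Its mean was 2.13 FPKM in overexpressing flies and 0.268 FPKM in controls. It thus passed the filter of 1 FPKM only through the overexpression group. The gene mt:tRNA:Cys-GCA, with 0 reads in overexpression and 6 reads in control libraries, did not pass that filter.

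Other tRNA genes had more reads but did not pass. The leucine tRNA gene mt:tRNA:Leu-TAG had 22, 26 and 15 reads in overexpression libraries, against 12, 11 and 13 reads in control libraries. Its groups did not overlap with overexpression higher, which was so for 12.2% of all tested genes, and the log2 difference was 0.63 ± 0.16 (SE, limma adjusted p = 0.0541; 0.0148 without overexpression replicate 3, and between 0.0148 and 0.271 over the alternatives). The other leucine tRNA gene, mt:tRNA:Leu-TAA, which lies between mt:CoI and mt:CoII, had 28, 38 and 13 reads in overexpression libraries, against 14, 10 and 11 reads in control libraries. Overexpression replicate 3 lay within the control range (log2 difference 0.90 ± 0.31 SE, limma adjusted p = 0.121), and without it the gene passed (1.28, adjusted p = 0.00777; range of adjusted p over the alternatives 0.00777 to 0.285).

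The most counted tRNA gene, mt:tRNA:Gly-TCC, just upstream of mt:ND3, had 59, 33 and 69 reads in overexpression libraries, against 43, 35 and 35 reads in control libraries, so the groups overlapped. It passed without overexpression replicate 2 (log2 difference 0.66, adjusted p = 0.0196; range of adjusted p over the alternatives 0.0196 to 0.845). The remaining tested genes, for glutamine, tryptophan, tyrosine, aspartate, alanine, arginine and asparagine, had log2 differences between -0.09 and 0.90 and adjusted p between 0.197 and 0.960. Among these, mt:tRNA:Asn-GTT had 1 read in each overexpression library, against 0, 7 and 0 reads in control replicates 1 to 3. It passed the filter of 1 FPKM only through control replicate 2. The filter was set on all 6 libraries, so the row stayed in the fit without that library. There it was called higher on 1 read per overexpression library against 0 (log2 difference 0.83, limma adjusted p = 0.0401). Its adjusted p over the alternatives ranged from 0.0401 to 0.973. Of all 22 tRNA genes, 11 had more reads and 5 had fewer in the overexpression group.

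Many nuclear genes of the same complexes were lower too. The list of 72 nuclear-encoded subunits, taken by symbol, had 70 tested members. Of these 0 rose and 26 fell, against 2.45% and 6.31% of all tested genes, with a median log2 difference of -0.22. The count of falls was 10 without overexpression replicate 3, 11 without overexpression replicate 1 or control replicate 2, 16 without overexpression replicate 2, 17 without control replicate 1 and 20 without control replicate 3. It was 10 with each library rescaled to a common FPKM total. As deposited, that total was lower in every overexpression library than in every control library. Nuclear complex I genes had a median of -0.20, with 12 of 33 lower, and nuclear ATP synthase genes a median of -0.31, with 8 of 12 lower. The 4 genes of complex II, which has no subunit in the mitochondrial genome, had a median of 0.03 and 0 calls by limma, with 1 higher at an unadjusted p under 0.05. Voom called 2 of them higher on library totals and 1 on the scale of the deposited FPKM. Of voom calls over all genes, 63.8% and 32.0% were higher on these 2 scales. These percentages split the calls by direction and do not give the share of all genes called, which was not computed for voom. The list includes 4 paralogs and the assembly factor Sdhaf3, none of them called; without these 5 the median was -0.23.

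The named nuclear genes had narrow groups. ND-B15, an accessory complex I subunit gene, measured 163 ± 6.03 FPKM in overexpressing flies and 217 ± 1.86 FPKM in controls (SD, n = 3 each; log2 difference -0.41 ± 0.05 SE, limma adjusted p = 0.00249). ND-B18 measured 78.2 ± 0.311 FPKM in overexpressing flies and 101.6 ± 3.13 FPKM in controls (limma adjusted p = 0.00325), and ND-15 measured 74.1 ± 3.35 FPKM in overexpressing flies and 100.5 ± 4.35 FPKM in controls (limma adjusted p = 0.00388). Their log2 differences, -0.37 for ND-B18 and -0.44 for ND-15, were closer to 0 than those of the mitochondrial complex I genes other than mt:ND6. Whether the mitochondrial and the nuclear complex I genes differed in size of change was not tested.

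No gene of the machinery that copies and transcribes the mitochondrial genome passed the test. Of 8 tested genes of mtDNA replication and transcription 0 passed by limma and 0 by voom, with 1 higher at an unadjusted p under 0.05, and the median log2 difference was 0.05. TFAM, the factor that packages the genome and starts transcription, measured 32.3, 36.1 and 34.6 FPKM in overexpression libraries and 30.9, 33.2 and 32.2 FPKM in control libraries. PolrMT, the mitochondrial RNA polymerase, measured 10.4, 9.72 and 10.4 FPKM in overexpression libraries and 9.25, 10.03 and 9.39 FPKM in control libraries. Both sets of values overlapped between groups, and these 2 genes were chosen for their role after their values were seen.

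Of 9 tested genes of mitochondrial RNA processing, stability and decay 0 rose and 1 fell by limma, against 2.45% and 6.31% of all tested genes. The median was 0.01, and voom on library totals called 1 higher and 1 lower. The one that fell was scu, which encodes a dehydrogenase that is also a part of the enzyme that cuts tRNAs out of precursors at their 5′ end. It measured 110 FPKM in overexpression replicate 1, 112 in replicate 2 and 102 in replicate 3, against 135, 130.3 and 126 FPKM in control replicates 1 to 3 (log2 difference -0.27 ± 0.06 SE, limma adjusted p = 0.0223). Its call was lost under 5 of the 16 alternatives, among them leaving out overexpression replicate 3 or control replicate 1 or 2 (adjusted p up to 0.0831). Of 14 mitochondrial tRNA synthetase genes, 11 genes of mitochondrial dynamics, quality control and chaperones and 6 regulators of mitochondrial biogenesis, 0 passed in each list by limma. Their medians were -0.06 for the synthetases, 0.07 for dynamics and quality control and 0.04 for the regulators. At an unadjusted p under 0.05 the counts were 1 lower for the synthetases, 2 higher for dynamics and quality control and 1 higher for the regulators. Voom called 0 synthetases on either scale. It called 4 genes of dynamics and quality control higher on library totals and 1 on the scale of the deposited FPKM, and rescaling to a common total called 2 higher. Of the regulators voom called 2 higher on library totals and 1 on the scale of the deposited FPKM. Among calls over all genes, 63.8% were higher with voom on library totals and 32.0% on the scale of the deposited FPKM. With rescaling to a common total, 63.1% were higher. These too split the calls by direction and are not shares of all genes called.

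Some muscle, fat body and hemocyte markers fell, while no testis or neuron and photoreceptor marker passed by limma. Over all tested genes, 6.31% fell and 2.45% rose by limma. Of 17 muscle markers, from a tissue rich in mitochondria, 0 rose and 8 fell (median -0.38), and their summed level was 2701 to 2982 FPKM in overexpression libraries and 3311 to 4022 FPKM in control libraries. The count of falls was 4 without overexpression replicate 1 or 3 or control replicate 2, 5 without overexpression replicate 2 or control replicate 1, and 9 without control replicate 3. Act88F, the actin of the indirect flight muscle, named after its values were seen, measured 119, 110.0 and 115 FPKM in overexpression libraries, against 251, 173 and 146 FPKM in control libraries. Its log2 difference of -0.69 lay near the low end of the list, which ran from -0.74 to 0.15. Of the 17 muscle markers 14 were below 0, while Strn-Mlck (0.15), bt (0.10) and sls (0.06) were above it. Of 7 fat body markers 5 were tested and 3 fell (median -1.002), with a summed level of 66.2 to 109 FPKM in overexpression libraries and 195 to 260.0 FPKM in control libraries. Of 7 tested hemocyte markers 3 fell (median -0.34), with a summed level of 87.9 to 109 FPKM in overexpression libraries and 138 to 149.9 FPKM in control libraries. The 3 were Col4a1 (means of 17.2 FPKM in overexpressing flies and 37.1 FPKM in controls), vkg (12.0 and 24.6 FPKM) and NimC1 (2.32 and 4.93 FPKM). Hml, eater, Pxn and crq did not pass, with log2 differences from -0.34 to -0.09. Whether Col4a1 and vkg RNA came from hemocytes alone was not tested. None of the muscle, fat body or hemocyte markers was at 0 in every library. Testis markers had 0 of 12 called by limma, with 3 higher and 1 lower at an unadjusted p under 0.05, and a median of 0.08. Neuron and photoreceptor markers had 0 of 9 called by limma, with 3 higher at an unadjusted p under 0.05, and a median of 0.02. Voom called 4 testis markers and 3 neuron and photoreceptor markers higher on library totals, and 2 of each higher on the scale of the deposited FPKM. Over all genes, 63.8% of voom calls were higher on library totals and 32.0% on the scale of the deposited FPKM. The share of all genes called was not computed for voom, nor the share with an unadjusted p under 0.05. In bulk RNA, fewer cells of a type and less RNA per cell cannot be told apart, and the part of these tissues in the mitochondrial falls was not tested. The groups also differ by whatever genetic background came with their transgenes, which cannot be told apart from overexpression here.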

How the data were processed

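The authors selected polyadenylated RNA, used HISAT2 2.0.5 for alignment and featureCounts 1.5.0-p3 for read counting, per the labels' protocols, on dm6, per the submitters' processing notes. The deposited values are FPKM, 1 column per library; the sources used here state neither annotation release nor strand setting nor the treatment of multiply assigned reads. Genes were named through their FlyBase identifiers (17252 of 17558 matched) and located in the Ensembl annotation of dm6. FPKM times annotated length gave whole reads in all 6 libraries, within 0.01 reads, for 97.7% of 15683 genes above 0. For 7 mitochondrial genes this took a length differing from the annotated one by at most 10 bp (1325 bp for mt:lrRNA in place of 1324); for those with few reads the length is uncertain. Between libraries of a group, chi-square per degree of freedom was 7.66 to 10.1 (genes averaging 50 reads or more), so all were treated as distinct.

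Genes averaging 1 FPKM or more, 12251 in all, entered a two-sided limma fit (3.58.1, R 4.3.3, with a mean-variance trend) of log2(FPKM + 1), a scale that understates changes of low genes, with Benjamini-Hochberg adjustment. The procedure was tested on simulated data. Single values and ratios were compared with exact permutation tests. Counting intervals cover counting error only. Members and gene lists were chosen with earlier results of these data known. Of the listed symbols, Twinkle, TEFM, bsf, wupA and FASN1 were not analysed here. Named are all members, CR46018 and up to 3 called genes per list with the smallest p; further names were picked with their values in view. The 16 alternatives took another pseudocount (0.1, 5), another expression filter (none, 5 FPKM), rescaling to a shared total with and without mitochondrial genes, quantile normalization, limma voom on recovered reads, the replicate number as a block, and leaving out each library. Voom with the scale of the deposited FPKM was added after seeing the data.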

Additional observations from a re-analysis of the deposited data

How the results depend on the processing

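The 5 genes mt:ND1 to mt:ND5 kept their direction and call under all 16 alternatives. The count of members that fell was 9, with 8 mRNAs; it was 5, with 5 mRNAs, with no filter and with quantile normalization, and from 5 to 7 (5 to 7 mRNAs) on leaving out 1 library. Quantile normalization gives the top-ranked gene the same value in every library by construction, so mt:lrRNA came to 0.0 there; mt:CoI turned to 0.044 and mt:Cyt-b to 0.071. The count that rose, 1, was 2 with both rescalings, 0 with voom on the scale of the deposited FPKM and 1 to 3 on leaving out 1 library. The 2 without control replicate 2 include mt:tRNA:Asn-GTT, which passed the filter only through the omitted library. Median log2 differences on leaving out 1 library were -0.59 to -0.49 for mRNAs. Scant rows changed sign on leaving out 1 library: mt:ND6 (-0.40 to 0.24), mt:tRNA:Trp-TCA (-0.16 to 0.30), mt:tRNA:Ala-TGC (-0.22 to 0.27), mt:tRNA:Arg-TCG (-0.39 to 0.25) and mt:tRNA:Asn-GTT (-0.54 to 0.83). The last was also 1.18 with a pseudocount of 0.1, 0.25 with voom on totals and 0.17 with voom on the deposited scale.

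Over all genes, 300 rose and 773 fell. The deposited FPKM totals were lower in every overexpression library than in every control library, with and without the mitochondrial genes. Rescaling to a common total gave 826 higher and 484 lower, so that 63.1% of calls were higher against 27.96% as deposited; rescaling to the total outside the mitochondrial genome gave 486 higher, voom on totals 1158 higher, and leaving out 1 library 137 to 283 higher and 427 to 629 lower. The 26 falls among nuclear subunits were 10 with rescaling to a common total, 14 with rescaling outside the mitochondrial genome, 11 with quantile normalization, 39 with voom on the deposited scale and 10 to 20 on leaving out 1 library; the 8 falls of muscle markers were 4 to 9. With the replicate number as a block, 7 members fell and 1 rose, with 219 higher and 616 lower over all genes. Deviations of same-numbered libraries had correlations of 0.046, -0.076 and 0.026, and those of differently numbered libraries -0.109 to 0.084. Same-numbered libraries thus did not stand out, but these values cannot show whether the numbers pair the samples. Where a call changed, the cause was not tested beyond what is stated.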
